A study of Mus musculus with 18 samples.

Results

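The neural tube (NT) of the mouse embryo at E11.5 was measured in 6 of the 18 libraries of the series, 3 of Ribo-Seq and 3 of RNA-Seq, and all 11231 genes of the table that holds them were described. Ribo-Seq reads are fragments of mRNA shielded from nuclease by a ribosome (ribosome-protected fragments, RPFs), whereas RNA-Seq reads sample the poly(A) mRNA itself. The ratio of RPFs to mRNA over the coding sequence (CDS) of a gene is its translational efficiency (TE). For each replicate number, log2 TE was log2(RPF + 1) minus log2(RNA + 1) of the normalized reads, centred on the median over the 11231 genes, so that a log2 TE of 0 is the median gene of that replicate and every value below is relative to it.

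The embryos were of the FVB strain, unmodified, from females of 3 to 8 months, and the same holds for the forelimb buds (FL), which serve below for comparison with the NT. The NT was cut out from the level of the hind limb up to the rhombomeres, freed of somites in medium with cycloheximide, which holds ribosomes in place, and dissociated with papain. By the study's methods, the embryos that gave the NT also gave the FL, and the cells of a tissue were divided between the 2 kinds of library, without saying that equal replicate numbers mark 1 suspension. RPF and RNA libraries of equal number are joined below for TE per replicate. The deviations of RPF 1 were most like those of RNA 2 (r = 0.38) and those of RPF 3 most like those of RNA 1 (r = 0.31), so the values per replicate depend on the numbering, whereas the mean over the 3 replicates does not. The third tissue, the mesoderm, was sorted by a T-Cre reporter and lies in a table of its own. The study calls the 3 replicates of each tissue biological. The sources do not state whether the 3 replicates come from separate litters, so p-values measure the spread between these samples, which may be partly technical.

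A ribosome usually loads at the cap of an mRNA and scans to a start codon. Upstream open reading frames (uORFs), which begin at an AUG before the main start codon, can take up scanning ribosomes and keep TE of the main CDS low. In the E11.5 neural tube, Shh from the notochord and floor plate patterns dividing progenitors, while the first neurons leave the cell cycle and send out axons.

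CDS reads recovered for the 11231 genes numbered 31993255, 28466039 and 16710643 in the NT RPF libraries, in the order of replicates 1 to 3. The NT RNA libraries had 32524637, 25257437 and 33061460 in the same order. The third RPF library was the shallowest and had 128 genes with 10 reads or fewer, against 33 and 40 genes in the other two and 0 to 4 genes in the RNA libraries. RPF replicates 1 and 2 were much more alike (Pearson's r = 0.989 over genes) than either was to replicate 3 (r = 0.933 and 0.934). The mean chi-square per gene between RPF replicates 1 and 2 was 7.8, where sampling alone gives about 1, against 172.7 and 159.8 for the other RPF pairs and 61.2 to 167.7 for the RNA pairs. They differed by more than sampling and were kept as 2 samples, and the study calls its replicates biological. Whether these are separate cell suspensions or separate preparations of 1 suspension cannot be told apart from the values. All 12 neural markers (*Nes*, *Dcx*, *Ncam1*, *Robo3* and others) were found, and their summed normalized reads were 248037 to 279983 in the NT RPF libraries and 129076 to 204072 in the NT RNA libraries, against 14643 to 16622 in the FL RNA libraries. Other cells of the dissection were also present. The 6 markers of red blood cells summed to 11367 to 20093 in NT RNA and 50338 to 67475 in NT RPF, the 8 of mesenchyme to 7048 to 7773 and 13116 to 18377, and the 6 found of macrophages to 975 to 1293 and 1614 to 2838. The 3 found of muscle and somite ran from 99 to 874 in RNA and from 303 to 360 in RPF, with the highest RNA sum in replicate 1. Endothelium (8 markers) summed to 6246 to 6593 in RNA and 7434 to 8805 in RPF. Neural crest and sensory neurons (3 found) summed to 2577 to 4077 in RNA and 7762 to 8799 in RPF.

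TE was spread over a limited range. The 5th percentile of log2 TE, averaged over the replicates, was -1.54 and the 95th percentile 1.03, a fold of 5.94 between them. The fold was 7.55 in replicate 1, 5.45 in replicate 2 and 11.7 in replicate 3. Across genes, RPF followed mRNA with r = 0.897, 0.922 and 0.840 in replicates 1, 2 and 3, and log2 TE showed little relation to the mRNA level (r = -0.057, -0.035 and -0.130). Log2 TE of the same genes correlated at r = 0.662 between replicates 1 and 2, 0.500 between 1 and 3, and 0.755 between 2 and 3. Genes are not independent replicates, so these r values are descriptions.

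A gene was called TE-low or TE-high where its TE departed 3-fold or more from the median and the adjusted p was below 0.05 (limma, replicate number as a block, Benjamini-Hochberg over 11231 genes). There were 471 TE-low genes (4.19%) and 44 TE-high genes (0.392%). Leaving out replicate 1, 2 or 3 gave 86, 72 or 39 TE-high genes, of which 29, 29 and 23 were among the 44. Low TE was the more common departure from the median at this threshold. All 471 TE-low genes lay below the median in each of the 3 replicates, where 6831 of all 11231 genes kept 1 side of it. In 466 of the TE-low genes the 3 RPF values were all below the 3 RNA values, which held for 23.5% of all genes. All 44 TE-high genes lay above the median in each replicate, and 43 had all RPF values above all RNA values, against 24.5% of all genes. The calls were made from these same values, so these counts largely follow from them and are no separate support. In 59 TE-low genes the departure was 8-fold or more, and in no TE-high gene. Low reads touch the TE-low set, since 96 of its genes had under 20 normalized reads in at least 1 library, against 1 TE-high gene.

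**Figure D1:**
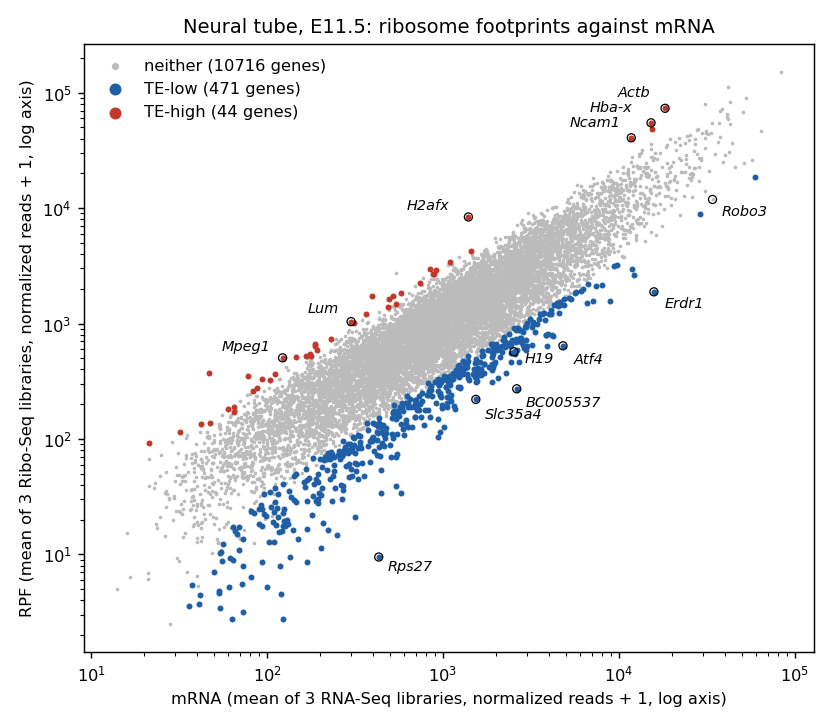
Mean mRNA (x axis) and mean RPF (y axis) of the 11231 genes in the neural tube, each the mean of 3 libraries in normalized reads + 1 on log axes. Each point is a gene, coloured by its call. The 471 TE-low genes form a band below the main cloud and the 44 TE-high genes a thin rim above it.

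Gene symbols were available for 3280 of the 11231 genes, among them 422 of the 471 TE-low genes and 27 of the 44 TE-high genes. They come from tables of genes that the study called in its tissues, partly on these samples, so genes with a symbol are no neutral sample. Their median log2 TE was -0.62, and 12.9% of them were TE-low and 0.823% TE-high. Counts for the gene lists below are read against these shares.

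The lowest list was that of mRNAs widely described as controlled by uORFs. Of its 8 members, 6 were TE-low, none was TE-high and the median log2 TE was -1.89, against -0.62 for genes with a symbol. *Atf4*, the main effector of the integrated stress response, had 5496, 4326 and 4594 normalized reads of mRNA and only 653, 593 and 676 of RPF in replicates 1, 2 and 3. Its log2 TE was -3.06, -2.89 and -2.83, a mean of -2.93 (SE 0.21, adjusted p = 0.00198). The 3 replicates are close and far from the mRNA values, so that the *Atf4* CDS carried 7.63-fold fewer RPFs per mRNA than the median gene.

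The relative *Atf5*, also a stress-response factor, had 560, 304 and 536 reads of mRNA and 108, 69.9 and 123 of RPF. Its log2 TE of -2.35, -2.13 and -2.18 averaged -2.22 (SE 0.29, adjusted p = 0.00507). The 5′ ends of both mRNAs share a layout in the GENCODE annotation of GRCm38 (mm10): a uORF of 3 codons, then a longer uORF that overlaps the main CDS in another frame. The AUGs are shown because they are the letters that a scanning ribosome meets, with 9 bases before and 4 after, and with the start codon in capitals.
*Atf4* short uORF, chr15:80255582-80255584, plus strand: gcggccaccATGgcgt
*Atf4* overlapping uORF, chr15:80255681-80255683: gcctaagccATGgcgc
*Atf4* main CDS, chr15:80256299-80256301: ccccacaacATGaccg
*Atf5* short uORF, chr7:44816535-44816537, minus strand: gcccgcgcaATGgctc
*Atf5* overlapping uORF, chr7:44816404-44816406: ttcgccgccATGgagt
*Atf5* main CDS, chr7:44815164-44815166: gtcacagccATGtcac
The short uORFs in full, with start and stop codons in capitals, are ATGgcgtatTAG in *Atf4* and ATGgctctgTAG in *Atf5*. They start 196 and 252 bases before the main AUG. The overlapping uORFs run for 59 and 58 codons before their stop, and a further uORF of 36 codons starts 475 bases before the main AUG in the annotated *Atf4* transcript. These are matches in the reference, and ribosomes on them cannot be seen here, since the table counts CDS reads alone.

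*Slc35a4*, a sugar transporter family gene known for a long translated uORF, had 1982, 1246 and 1376 reads of mRNA and 215, 211 and 232 of RPF. Its log2 TE averaged -2.80 (SE 0.25, adjusted p = 0.00387). *Ifrd1*, an immediate-early type regulator of differentiation, lay at -1.84, -1.67 and -1.78, a mean of -1.76 (SE 0.22, adjusted p = 0.00428). Both genes kept their RPFs clear of their mRNA values in every replicate.

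In a pair of genes of the same stress pathway, *Ppp1r15a* varied more between replicates (SD 1.35) than *Ddit3* (SD 0.34). *Ddit3*, the proapoptotic factor CHOP, had log2 TE of -2.16, -2.01 and -1.51 (mean -1.89, SE 0.37, adjusted p = 0.0131). *Ppp1r15a*, which encodes the phosphatase subunit GADD34 that reverses eIF2 phosphorylation, had -3.09, -2.14 and -0.43 (mean -1.89, SE 0.49, adjusted p = 0.0301). Its mRNA was 707 in replicate 1 against 280 and 212, and its RPF was highest in replicate 3 at 165, so the 3 replicates spread widely. The call of *Ppp1r15a* was lost without replicate 1 and that of *Ddit3* without replicate 2. Their uORFs end within the 5′-UTR in the annotation, shown in the same way.
*Ddit3* first upstream AUG, chr10:127290829-127290831, plus strand: gattatatcATGttga
*Ddit3* main CDS, chr10:127295341-127295343: cgtgcagtcATGgcag
*Ppp1r15a* upstream AUG nearest the CDS, chr7:45526087-45526089, minus strand: gagggcgacATGaacc
*Ppp1r15a* main CDS, chr7:45525380-45525382: cccagacacATGgccc
*Ifrd1* upstream AUG, chr12:40223156-40223158, minus strand: gagagaaacATGtatc
*Ifrd1* main CDS, chr12:40222954-40222956: cggcccacgATGccga
The uORFs run for 34 codons in *Ddit3*, 26 codons in *Ppp1r15a* and 52 codons in *Ifrd1* before their stop. *Cebpa* and *Cebpb*, transcription factors whose uORFs are known for setting protein isoforms, were not called, at -0.70 (SE 0.66, adjusted p = 0.449) and -0.63 (SE 0.49, adjusted p = 0.359), and *Cebpa* had at most 56.6 reads of mRNA. The annotated *Cebpa* transcript has 1 upstream AUG, with a uORF of 5 codons, and that of *Cebpb* has none.

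**Figure D2:**
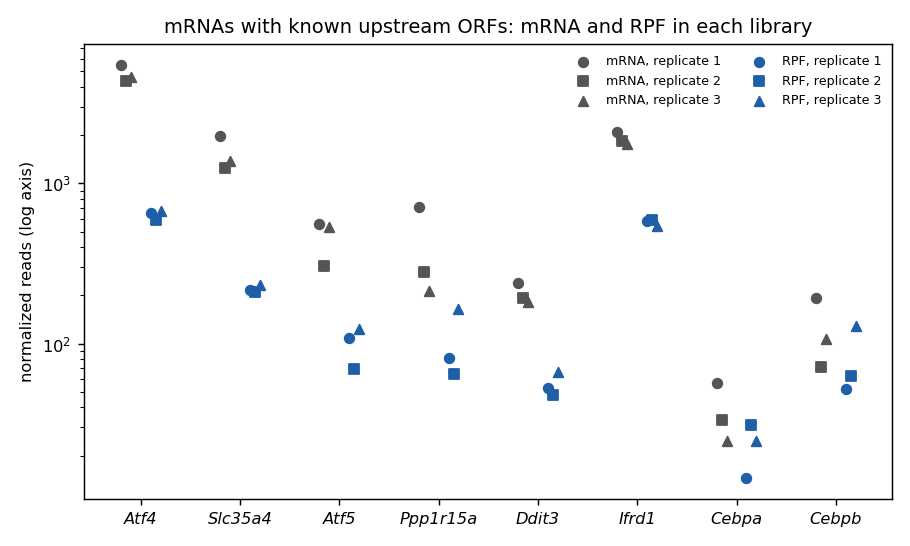
Normalized reads (log axis) of the 8 mRNAs known for uORFs in each neural tube library, mRNA in grey and RPF in blue, with a marker shape for each replicate. From *Atf4* to *Ifrd1* the RPF points sit below all mRNA points, while those of *Cebpa* and *Cebpb* overlap.

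Among all TE-low genes with an annotated coding transcript (400 of 471, 84.9%), 79.5% had at least 1 upstream AUG in the 5′-UTR and 40.2% had 3 or more. In the 2806 matched genes with a symbol that were called neither way, the shares were 56.4% and 22.1%, and over all 22075 coding genes of the annotation 50.2% had at least 1. The median 5′-UTR was 245 bases long in TE-low genes, 189 bases in the genes called neither way and 152 bases over the annotation. Only 26.2% of all uncalled genes and 59.1% of TE-high genes could be matched, so the comparison is void for these sets as a whole and is given for genes with a symbol as a description. The isoform used by the authors can differ from the annotated transcript chosen here.

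Of genes with a symbol that met the limits on reads (a mean of at least 100 and 20 in each NT library), the 10 TE-low genes furthest from the median had mean log2 TE between -3.29 and -2.98. The lowest of them was *BC005537* (chr13:24801657-24816197), a gene of little known function, with 2382, 3008 and 2475 reads of mRNA and 273, 291 and 249 of RPF. Its log2 TE of -3.11, -3.39 and -3.38 averaged -3.29 (SE 0.22, adjusted p = 0.00198), 9.81-fold below the median, and the annotated transcript carries 19 upstream AUGs in a 5′-UTR of 1724 bases. *Erdr1* had 16777, 15338 and 15287 reads of mRNA and 1956, 2263 and 1426 of RPF, with a mean log2 TE of -3.12 (SE 0.22, adjusted p = 0.00198). The 3 replicates were closer for *BC005537* (SD 0.16) than for *Erdr1* (SD 0.35).

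*Fbxw2*, an F-box protein that selects substrates for ubiquitination (chr2:34804514-34826311), had log2 TE of -2.50, -3.30 and -3.51 (SE 0.30, adjusted p = 0.00387). *Pla2g4b*, a cytosolic phospholipase A2, lay at -3.04, -2.75 and -3.40 (SE 0.28, adjusted p = 0.00387). *Mamdc4* averaged -3.07, *Fam129c* -3.04, and the little described transcripts *AI506816*, *AK139721* and *Gm20605* -3.20, -2.99 and -2.98. In *Mphosph9*, a gene of the centriole, the low mean of -2.99 came mostly from replicate 3. Its RPF was 277, 252 and 42.0 against 840, 1251 and 1363 of mRNA, so that log2 TE was -1.59, -2.34 and -5.06 (SE 0.58, adjusted p = 0.0127). All 10 were TE-low under every alternative tried, with single replicates left out as well.

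Of the TE-high genes chosen in the same way, the furthest from the median was *H2afx* (chr9:44334694-44336077), the histone variant phosphorylated at DNA breaks. It had 2003, 944 and 1231 reads of mRNA and 5202, 5783 and 14157 of RPF, which gave log2 TE of 1.38, 2.58 and 3.45 (mean 2.47, SE 0.36, adjusted p = 0.00628). RPFs exceeded mRNA in all replicates, by least in replicate 1. Over all 44 TE-high genes, of which 27 have a symbol, the highest log2 TE was 2.88, in a gene without a symbol. *H3f3a*, the replication-independent histone H3.3, lay at 0.94, 2.67 and 2.09 (mean 1.90, SE 0.33, adjusted p = 0.00975), and *Actb*, cytoplasmic beta-actin, at 1.22, 2.17 and 2.51 (mean 1.97, SE 0.28, adjusted p = 0.00573). The authors kept uniquely mapping reads, and *H2afx*, *Actb*, *H3f3a* and *Myl12b* have close relatives or near-identical copies in the genome, so their levels are uncertain. The RNA libraries were made from poly(A) mRNA, whereas the RPFs were not selected for poly(A). The part of this difference in the TE of histone genes was not tested. The call of *H3f3a* was lost without replicate 2.

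*Ncam1*, the neural cell adhesion molecule (chr9:49502136-49798925), was the most repeatable of the 10. It had 10154, 11446 and 13635 reads of mRNA and 36933, 36988 and 48074 of RPF, and its log2 TE of 1.87, 1.66 and 1.75 averaged 1.76 (SE 0.20, adjusted p = 0.00392). *Sh3bgrl*, a small thioredoxin-like protein, lay at 3.24, 1.32 and 1.09 and lost its call without replicate 1, where its mRNA was 204 against 762 and 582. *Mapk15*, *Mpeg1* and *Myl12b* were highest in replicate 3, at 3.40, 3.23 and 2.72, and lost their calls without it.

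Several TE-high genes are known from cells other than neural ones. *Hba-x*, the embryonic alpha-like globin of primitive red blood cells, had 18979, 15874 and 10789 reads of mRNA and 49354, 48778 and 66360 of RPF (mean log2 TE 1.84, SE 0.27, adjusted p = 0.00628), and its call was lost without replicate 3. *Mpeg1*, a perforin-like gene of macrophages, averaged 2.11 (adjusted p = 0.0118) and *Cx3cr1*, the fractalkine receptor of macrophages and microglia, singled out after its values were seen, 1.75 (adjusted p = 0.0107). *Lum*, a proteoglycan of mesenchyme, averaged 1.81 (adjusted p = 0.0067). Of the full marker lists, 6 of 6 red blood cell genes lay above the median, with 1 TE-high, as did 5 of 8 mesenchyme genes with 1 TE-high and 5 of 6 macrophage genes with 1 TE-high. The other lists held no TE-high gene. Above the median lay 5 of 8 endothelium genes, 2 of 3 of muscle and somite and 2 of 3 of neural crest and sensory neurons. For comparison, 2274 of the 3280 genes with a symbol and 5620 of all 11231 genes lay below it. *Egfl7* of endothelium was TE-low at -1.74 (adjusted p = 0.00927 in limma). The summed levels of these lists, given above, were higher in every RPF library than in any RNA library, except for muscle and somite. The same held for the neural markers, of which 10 of 12 lay above the median. Single genes made up most of some sums, so these do not speak for every marker of a cell type. They were *Hba-x* for red blood cells, *Sparc* for mesenchyme (3727 to 4886 in RNA, 8259 to 13510 in RPF) and *Ednrb* for neural crest (1854 to 3512 in RNA, 7151 to 7911 in RPF). The part of these cells in the TE of the genes was not tested.

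**Figure D3:**
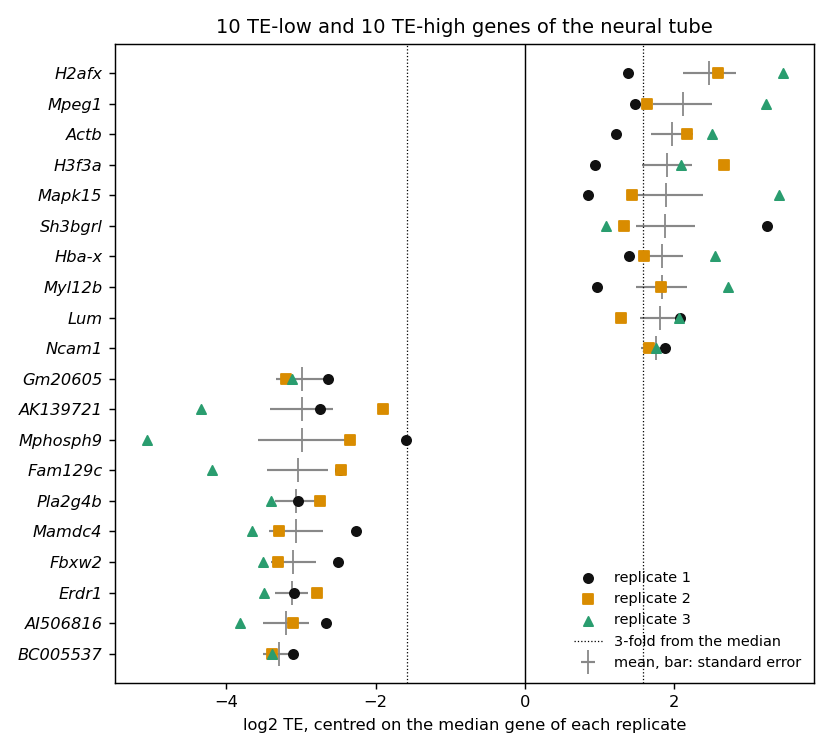
Log2 TE in each replicate for the 10 TE-low and 10 TE-high genes furthest from the median within the limits on reads; the grey tick is the mean, the bar its standard error and the dotted lines mark 3-fold. *BC005537* and *Ncam1* have the tightest replicates, and *Mphosph9* reaches -5.06 in replicate 3.

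Genes of neural progenitors and neurons were on the whole close to or above the median. Of 33 found, 1 was TE-high and none TE-low, with a median log2 TE of 0.41, and at an adjusted p under 0.05 without a fold limit 11 lay above and 4 below, where this held for 6.8% and 35.5% of genes with a symbol and for 10.2% and 14.9% of all genes. *Dcx*, the microtubule protein of migrating neurons, had 2675, 7953 and 6797 reads of mRNA and 16928, 17087 and 14041 of RPF, a mean log2 TE of 1.57 (SE 0.33, adjusted p = 0.0163). *Gpm6a*, a neuronal membrane glycoprotein, and *Tubb2b*, a neuronal beta-tubulin, both averaged 1.34 (adjusted p = 0.00863 and 0.0103). *Stmn1* at 1.12, *Fabp7* of radial glia at 1.03 and the retinoic acid binding protein *Crabp1* at 1.03 also passed without reaching 3-fold.

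The exceptions included the receptor *Robo3*, which lets commissural axons cross the midline. *Robo3* (chr9:37415669-37433246) had 28072, 24388 and 49613 reads of mRNA and 9784, 10281 and 15598 of RPF. Its log2 TE was -1.51, -1.28 and -1.74, a mean of -1.51 (SE 0.21, adjusted p = 0.00549), just short of the 3-fold limit of 1.58. *Lhx2* and *Brinp1*, both at -0.93, and *Rest*, the repressor of neuronal genes, at -0.79, also passed below the median (adjusted p = 0.0305, 0.0415 and 0.0417). The intermediate filament gene *Nes* of progenitors lay at 0.56, 0.12 and -0.08, within its error of the median.

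*Map1b* shows how far the replicates could part. Its mRNA was 34055, 66457 and 57510 and its RPF 110154, 109326 and 51516, so log2 TE was 1.70, 0.69 and -0.23 (mean 0.72, SE 0.34, adjusted p = 0.151). *Gria2*, a glutamate receptor subunit, went from 0.53 in replicate 1 to -1.81 and -2.63 in the others. The replicates of both genes differed in sign, and *Gria2* was not called (adjusted p = 0.095).

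Among genes for axon guidance and cadherin-type adhesion, 2 of 38 were TE-low and 2 TE-high, with a median of 0.01. *Cdh24*, a cadherin, was at -2.18, -1.81 and -2.19 (mean -2.06, SE 0.22, adjusted p = 0.00387) and the semaphorin *Sema4g* at -1.59 (SE 0.21, adjusted p = 0.00516). The repellent *Sema3a* was TE-high together with *Ncam1*, at 2.90, 0.84 and 1.15 (mean 1.63, SE 0.39, adjusted p = 0.0224), and its mRNA was 200 in replicate 1 against 733 and 690. The call of *Sema4g* was lost without replicate 1 or 3, with a pseudocount of 8 and without centring, and that of *Sema3a* without replicate 1.

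Of 34 ion channel genes, 3 were TE-low (8.82%, against 12.9% of genes with a symbol) and 19 lay below the median at an adjusted p under 0.05 (55.9%, against 35.5%) and none above. The list's median was -0.89, -1.12 and -1.01 in replicates 1, 2 and 3, where genes with a symbol had -0.40, -0.46 and -0.93. *Grik5*, a kainate receptor subunit, had 5794, 5158 and 5823 reads of mRNA and 1834, 1730 and 2005 of RPF (log2 TE -1.65, -1.60 and -1.61, SE 0.20, adjusted p = 0.00428). *Clcn2*, a chloride channel, averaged -1.78 and *Trpm7*, a cation channel fused to a kinase, -2.61 (adjusted p = 0.00428 and 0.00435).

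For the Shh pathway, receptors and transcription factors are described first. The receptor *Ptch1* lay at -0.82, -0.96 and -1.30 (mean -1.03, SE 0.21, adjusted p = 0.0144). *Smo*, the signal transducer that *Ptch1* inhibits, had 4849, 3602 and 4260 reads of mRNA and 1251, 1300 and 1880 of RPF, and at a mean of -1.57 (SE 0.22, adjusted p = 0.00616) it fell just short of 3-fold. *Gli1*, a target and activator of the pathway, was TE-low at -2.03, -1.29 and -1.43 (mean -1.59, SE 0.28, adjusted p = 0.0105), a call lost without replicate 1, with a pseudocount of 8 and without centring. *Gli3*, the main repressor, was at -0.56 (SE 0.24, adjusted p = 0.115) and not called. The annotated transcripts carry 2 upstream AUGs in *Ptch1*, 2 in *Smo* and 1 in *Gli1*. The study mapped capped mRNA ends in E11.5 neural tubes and somites and found longer 5′-UTRs than annotated for *Ptch1* and *Gli1*. The counts from the annotation can therefore miss upstream AUGs of the main transcripts in this tissue.

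With the ciliary genes, which build the organelle where Shh is received, the list had 38 members, of which 4 were TE-low (10.5%, against 12.9% of genes with a symbol) and none TE-high. At any fold, 18 passed below the median (47.4%, against 35.5%) and none above, and the list's median was -0.53, -0.81 and -1.42 in the 3 replicates. *Mkks*, a chaperonin-like gene of Bardet-Biedl syndrome, was the lowest at -1.67, -2.62 and -2.93 (mean -2.41, SE 0.35, adjusted p = 0.00646), and *Dzip1*, at the ciliary base, averaged -1.89 (SE 0.28, adjusted p = 0.00699). *Rttn*, a centriolar gene, was called at -1.60 (SE 0.42, adjusted p = 0.031), a call lost without replicate 3 and under several other settings, and *Dzip1* lost its own without replicate 3. *Dync2h1*, the motor of retrograde ciliary transport, lay at 0.78, -0.79 and -2.72 (adjusted p = 0.235), so its replicates disagreed in sign.

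In the list of Wnt and Hippo genes, which the study drew for low TE in the mesoderm and which is therefore no independent choice, 6 of 9 were TE-low with a median of -1.60. *Sav1*, the Hippo kinase scaffold, had 1003, 1141 and 1030 reads of mRNA and 232, 257 and 122 of RPF (mean log2 TE -2.47, SE 0.29, adjusted p = 0.00426). The upstream Hippo genes *Nf2* and *Wwc1* averaged -1.60 and -1.59 (adjusted p = 0.00565 and 0.00632), both close to the limit. *Rspo1*, a Wnt agonist, was at -4.00 (SE 0.94, adjusted p = 0.0215) on at most 97.7 reads of mRNA and 9.76 of RPF, and lost its call without replicate 2. *Nf2* lost its call without replicate 3, *Wwc1* without replicate 1, and both without centring.

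Several lists of nuclear and cytoskeletal genes lay near the -0.62 of genes with a symbol and differed between replicates. Their medians were between -0.93 and -0.63, and 2.86% to 13.3% of their members were TE-low, against 12.9% of genes with a symbol. Chromatin regulators (63 genes) had 6 TE-low and no TE-high members, with medians of -0.28, -0.74 and -1.77 in replicates 1, 2 and 3. Zinc finger genes (130) had 12 TE-low and none TE-high, with medians of -0.13, -0.81 and -1.36. Centrosome and spindle genes (30) had 4 TE-low members and medians of 0.06, -0.45 and -1.43, motor proteins (32) had 3 and medians of 0.03, -0.43 and -1.51, and large ubiquitin enzymes (35) had 1 and medians of 0.12, -0.57 and -1.66. No member of these lists was TE-high, and in the 3 lists with a replicate 1 median above 0 that replicate lay opposite the others.

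Single members of these lists could still be even. *Usp21*, a deubiquitinase, had log2 TE of -2.46, -2.22 and -1.90 (SE 0.23, adjusted p = 0.00387), *Myo19*, the mitochondrial myosin, -2.57, -2.01 and -2.36 (SE 0.25, adjusted p = 0.00387) and *Plk4*, the kinase that starts centriole duplication, -1.41, -1.84 and -2.16 (SE 0.25, adjusted p = 0.00573). *Kmt2e*, *Ino80* and *Kdm5d* averaged -1.65, -1.75 and -1.65, and all 3 lost their call without replicate 3, *Kmt2e* also without replicate 2. *Huwe1*, a very large ubiquitin ligase, had 25855, 26496 and 10321 reads of RPF against 23518, 38477 and 35234 of mRNA and was not called (adjusted p = 0.14).

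**Figure D4:**
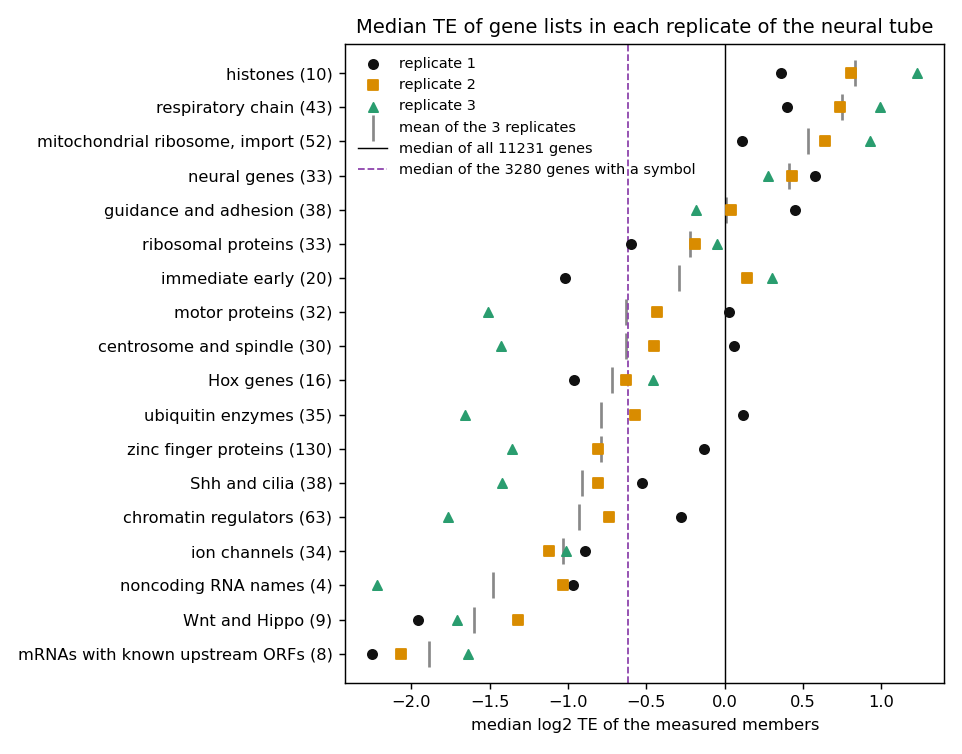
Median log2 TE of the measured members of each gene list in the 3 replicates (markers) and over their mean (grey tick), with the number of members in brackets. The solid line is the median of all genes and the dashed line that of genes with a symbol, -0.62. Lists of long genes, such as chromatin regulators and motor proteins, lie furthest left in replicate 3, while histones, respiratory chain and mitochondrial genes lie right of 0 in all replicates.

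Short housekeeping genes of the mitochondrion lay on the other side. Of 43 genes of the respiratory chain and ATP synthase, 22 passed above the median at an adjusted p under 0.05 and none below. That was 51.2% above, against 6.8% of genes with a symbol. The medians were 0.40, 0.74 and 0.99, but only 1 gene reached 3-fold. That gene, *Uqcr11* of complex III, was at 0.76, 1.88 and 2.16 (mean 1.60, SE 0.30, adjusted p = 0.012) and lost its call without replicate 2 or 3. *Atp5g3*, a subunit c gene of ATP synthase, averaged 0.78 (SE 0.21, adjusted p = 0.032). Of 52 genes of the mitochondrial ribosome and protein import, none was called TE-low or TE-high. In that list 12 passed above the median (23.1%, against 6.8%) and none below, with medians of 0.11, 0.64 and 0.93. Of 10 histones, 2 were TE-high (20%, against 0.823% of genes with a symbol) and 5 passed above the median (50%, against 6.8%), with a median of 0.83.

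Cytoplasmic ribosomal proteins, whose mRNAs begin with a terminal oligopyrimidine tract that ties them to growth signals, were near the median. Of 33, 1 was TE-low, 1 TE-high and the median was -0.22. At any fold 5 passed below (15.2%, against 35.5% of genes with a symbol) and 2 above (6.06%, against 6.8%). *Rpl14* was TE-high at 1.73 (SE 0.34, adjusted p = 0.0131), a call lost without replicate 2 or 3. *Rps27* was the lowest gene of the table at -6.29, with 333, 398 and 558 reads of mRNA and 17.4, 8.13 and 0 of RPF. Most ribosomal protein genes have many near-identical copies, so *Rps27* and *Rpl14* are uncertain.

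Hox genes, which set position along the body axis, had a median log2 TE of -0.72, near the -0.62 of genes with a symbol, without large departures. None of 16 was TE-low, and the medians were -0.96, -0.63 and -0.46. At any fold 8 passed below the median (50%, against 35.5% of genes with a symbol and 14.9% of all genes) and none above. *Hoxb3* had a mean of -1.27 (log2 TE -1.45, -1.23 and -1.13, SE 0.20, adjusted p = 0.00798) and *Hoxd3* -1.13 (SE 0.20, adjusted p = 0.0111). Both gave similar values in all replicates.

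Immediate early genes, whose mRNAs are made within minutes of a stimulus, had 3 TE-low members of 20 (15%, against 12.9% of genes with a symbol). *Fos* had 1626, 641 and 258 reads of mRNA and 145, 265 and 47.8 of RPF (log2 TE -3.47, -1.30 and -2.48, mean -2.41, SE 0.41, adjusted p = 0.00948). *Nr4a1*, an orphan nuclear receptor, followed the same order with 1337, 501 and 300 reads of mRNA (mean log2 TE -1.97, SE 0.40, adjusted p = 0.0145) and *Fosb* averaged -3.00 on few reads (SE 0.88, adjusted p = 0.0412). The mRNA of these genes was highest in replicate 1, where the list's median log2 TE was -1.02, against 0.14 and 0.30 in the others. *Nr4a1* lost its call without replicate 1, and *Fosb* without replicate 3, without the block and with edgeR.

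Of 4 transcripts that bear the name of a noncoding RNA, 2 were TE-low. *H19*, the imprinted RNA, had 2367, 2058 and 3157 reads of RNA and 432, 575 and 699 of RPF (log2 TE -2.44, -1.87 and -2.24, mean -2.19, SE 0.23, adjusted p = 0.00387). *Miat* averaged -2.28 (SE 0.38, adjusted p = 0.00908), while *Kcnq1ot1* and *Znrd1as*, at -0.77 and -0.62, were not called. Their values refer to the reading frame that the known gene table of UCSC gave them.

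The difference between the replicates varied with CDS length. The 3232 genes with a symbol and a coding transcript were divided by CDS length into 5 groups of 641 to 652 genes. In the shortest group, with a median CDS of 435 bases, the median log2 TE was 0.01, 0.44 and 0.66 in replicates 1, 2 and 3. In the longest, with a median of 5400 bases, it was -0.25, -0.57 and -1.54. Across genes, log2 TE and log2 CDS length had r = 0.012 in replicate 1, -0.286 in replicate 2 and -0.462 in replicate 3, as a description.

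Both kinds of library moved. In the longest group the RPF values of replicate 3 lay 0.65 below the mean of the 3 RPF libraries on the log2 scale and those of replicates 1 and 2 lay 0.32 and 0.33 above it, and in the shortest group the order was the reverse (0.31 against -0.16 and -0.15). The RNA values of replicate 1 lay 0.21 below the RNA mean in the longest group and 0.17 above it in the shortest. TE-low genes made up 4.91% of the shortest group, 17.5%, 20.7% and 11.9% of the next, and 6.96% of the longest. The part of length in the TE of single genes was not tested.

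**Figure D5:**
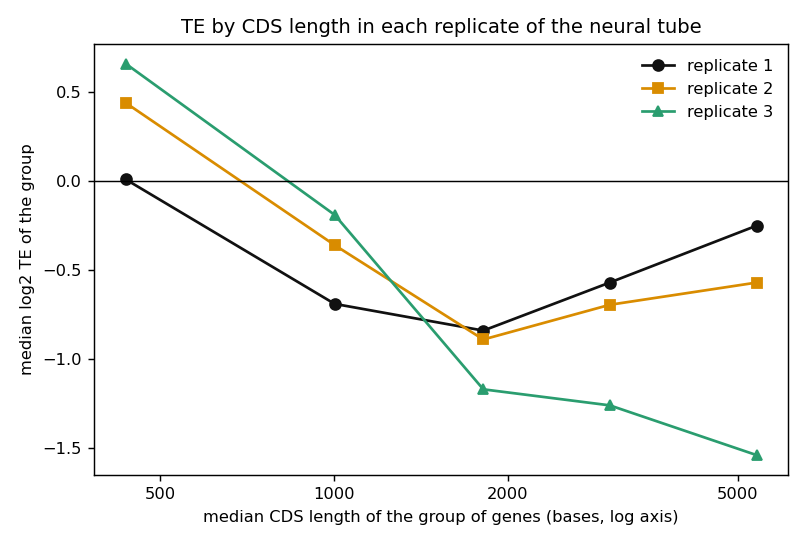
Median log2 TE in each replicate for 5 groups of genes by CDS length (x axis, median length in bases, log axis). The replicates are closest in the middle group and furthest apart in the longest, where replicate 1 is at -0.25 and replicate 3 at -1.54.

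In the other tissues the same genes mostly leaned the same way. By the same fit, 360 of the 471 NT TE-low genes (76.4%) were TE-low in the FL, where 13.4% of all genes were, and they made up 23.9% of the 1508 FL TE-low genes. In the mesoderm, 380 of the 456 NT TE-low genes in both tables (83.3%) were TE-low, where 10.8% of genes were, and they made up 31.9% of its list. Of the TE-high genes, 21 of 44 (47.7%) were TE-high in the FL against 6.21% of all genes, and 20 of 42 (47.6%) in the mesoderm against 1.1%. No NT call had the opposite call in the FL or the mesoderm, and 331 TE-low and 14 TE-high genes carried the same call in all 3 tissues.

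The call counts themselves differed, with 698 TE-high and 1508 TE-low genes in the FL against 44 and 471 in the NT. Such counts depend both on the size of TE and on the spread between replicates, and the part of each was not tested. For *Atf4* log2 TE averaged -2.93 in the NT, -2.51 in the FL and -3.46 in the mesoderm, and for *Ifrd1* -1.76, -1.72 and -2.04. The median of genes with a symbol was -1.39 in the FL against -0.62 in the NT. Beside it, chromatin regulators had -2.11 against -0.93, Shh and ciliary genes -1.87 against -0.91 and neural genes -0.56 against 0.41, and these differences between lists were not tested.

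Whether TE differed between NT and FL was tested in the 12 libraries by a tissue-by-library-type interaction term. Calls needed a 2-fold difference and an adjusted p below 0.2, the thresholds of the study. TE was higher in the NT for 31 genes (0.276%) and higher in the FL for 12 genes (0.107%). All 43 have a symbol, which makes 0.945% and 0.366% of genes with a symbol. Symbols come partly from the study's own calls between NT and FL, so the lists are not independent of this test. Called were 4 of 33 neural genes, 2 of 16 Hox genes and 2 of 34 ion channels. So were 1 of 4 noncoding RNA names, 1 of 43 respiratory chain genes and none in the other lists. With the replicate number as a block within each tissue, the calls were 3 and 1. With equal numbers also paired across NT and FL, a fit added after seeing the data since both tissues came from the same embryos, limma called 0 genes, with 956 at an unadjusted p under 0.05. The 43 calls therefore do not hold where the numbers are taken to pair the tissues.

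*Gabbr1*, a subunit of the metabotropic GABA receptor, had the lowest adjusted p among the named genes without a block. Its log2 TE was -0.13, -0.13 and 0.20 in the NT and averaged -2.81 in the FL, a difference of 2.82 (adjusted p = 0.0223). *Eno2*, the neuronal enolase, differed by 2.21 (adjusted p = 0.162), *Nes* by 1.93 (adjusted p = 0.129) and *H19* by 1.86 (adjusted p = 0.153), all higher in the NT. *Hes1*, a repressor that holds progenitors undifferentiated, was lower in the NT by 2.39 on the log2 scale (adjusted p = 0.122). Its NT values were -1.08, -0.50 and 0.19, against a mean of 1.96 in the FL.

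The counts depended on which replicates entered. Without replicate 1 or replicate 2 of both tissues, limma called 0 genes, with 160 and 264 genes at an unadjusted p under 0.05. Without replicate 3 it called 2620 genes higher in the NT and 2153 higher in the FL. On recovered reads DESeq2 called 288 and 448 genes, and edgeR 25 and 18, so no count of genes that differ between NT and FL held over these settings.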

How the data were processed

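RNA-Seq (poly(A) RNA) and Ribo-Seq (footprints of 28 to 31 nt) were measured in NT and FL, 3 libraries each, in 1 table, and in mesoderm in another. Per the study's methods, the authors trimmed reads with cutadapt, removed rRNA, tRNA and snRNA reads, aligned to canonical UCSC known genes (mm10; the submitters' processing notes name Bowtie2, with no role), kept unique reads, assigned them to the A site and counted CDS reads, leaving out 15 codons at the start and 5 at the end. Versions are not given in the sources used here. The deposited signal is these read counts divided by DESeq size factors. Some neural tubes were snap frozen before use, and which libraries they entered is not given in the sources used here.

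Whole reads were recovered from the steps of the values (tolerance 0.006 reads) for depth, edgeR 4.0.16 and DESeq2 1.42.0. The main fit was limma 3.58.1 in R 4.3.3 on the centred log2 differences (pseudocount 1), which equals a replicate block. NT against FL was fitted without the block, although both tissues came from the same embryos. The methods say that cells were split between library types but do not tie the replicate numbers to a suspension, so the pairing is that of the study's own model, which has a replicate term. Deviations from group means of same-numbered NT RPF and RNA libraries had r = -0.28, 0.35 and 0.05 in replicates 1, 2 and 3, and those of other numbers -0.43 to 0.38. On simulated NT data over 11231 genes, limma recovered 99.5% of 200 genes changed 8-fold and called 4 unchanged genes. Only 59 of the 471 TE-low genes and no TE-high gene departed that far, so recovery at the 3-fold limit was not measured. Unchanged genes were all drawn at the median TE, so false calls among genes of intermediate TE were not measured. Changed genes were picked among those with a mean of at least about 100 normalized reads. For NT against FL over 11231 genes, limma recovered 157 of 200 genes changed 4-fold and called 53 unchanged genes. Recovery at the 2-fold limit of that comparison was not measured either. Whether these rates hold for the real replicates, which differed with CDS length, was not tested.

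Named genes were the 10 with a symbol furthest from the median on each side (mean of at least 100 normalized reads, each library at least 20), and up to 4 per list plus listed key genes. Lists, members and alternatives were chosen with earlier results of these data known. Symbols came from the study's supplementary gene tables, transcripts from GENCODE. Alternatives changed the pseudocount, filter, centring, block, tool, fold threshold and replicates.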

Additional observations from a re-analysis of the deposited data

Results flagged for a closer look

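In 5 named genes, log2 TE differed between NT and FL by the interaction test in limma. The difference, NT minus FL, was 2.82 for *Gabbr1* (adjusted p = 0.0223), 2.21 for *Eno2* (adjusted p = 0.162), 1.93 for *Nes* (adjusted p = 0.129), 1.86 for *H19* (adjusted p = 0.153) and -2.39 for *Hes1* (adjusted p = 0.122), called at an adjusted p under 0.2. All 5 kept their direction in the 9 alternatives. *Gabbr1* was still called in 6 of the 9, *Eno2*, *Nes* and *Hes1* in 5 and *H19* in 4. With the replicate block the adjusted p was 0.0681 for *Gabbr1* and 0.256 for the other 4, with equal numbers paired across tissues it was 0.474 for all 5, and without replicate 1 or replicate 2 it was 0.984 or 0.927 for all 5.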

How the results depend on the processing

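The number of TE-low genes stayed between 407 and 610 under other pseudocounts, a filter, no centring, edgeR, DESeq2 and with single replicates left out, and was 1271 at a 2-fold threshold. The number of TE-high genes was 497 at 2-fold, 39 to 86 with single replicates left out and 69 with replicates 1 and 2 averaged, a setting chosen after seeing the data. RPF and RNA libraries did not all vary most like those of their own number. Without the replicate block the counts were 460 TE-low and 46 TE-high, 454 and 44 of them among those reported, and *Fosb* alone among the 155 named genes lost its call. The number of genes with TE higher in the NT than in the FL was 31 in the fit reported, 3 with the replicate block, 0 with the block across tissues (added after seeing the data), 288 with DESeq2 and 0 to 2620 with single replicates left out. The number higher in the FL was 12, 1, 0, 448 and 0 to 2153 in that order. The cause was not tested. In replicate 3 alone the 5th and 95th percentiles of log2 TE were -2.10 and 1.45, and in replicate 1 alone the 95th was 1.29. Of the named genes, 8, 8 and 21 lost their call without replicates 1, 2 and 3, 8 without centring, 5 with a pseudocount of 8 and 3 with edgeR, and no called value reversed. The third RPF library, with 16710643 CDS reads, limits genes of few RPFs most.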

Other observations

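Outside the lists, the abundant mRNAs *Rnf10* and *Ftl1*, singled out after their values were seen, were TE-low. *Rnf10*, a RING finger ubiquitin ligase, had 13311, 10622 and 11469 normalized reads of mRNA and 2584, 2640 and 3682 of RPF in replicates 1, 2 and 3, with a mean log2 TE of -2.03 (SE 0.22, adjusted p = 0.00387 in limma). *Ftl1*, the ferritin light chain that stores iron and whose mRNA is known for an iron-responsive element, had 33735, 23374 and 29966 of mRNA and 6792, 7246 and 12817 of RPF, with a mean of -1.77 (SE 0.24, adjusted p = 0.00549 in limma). Ferritin light chain has near-identical copies in the genome, so the level of *Ftl1* is uncertain.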
